A study of Mus musculus with 16 samples.

Results

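The genes described here are 34 mouse genes of the unfolded protein response and of the Atf4 stress program, taken as a list of symbols from the 55487 genes measured. All 34 were found by symbol, and all 34 passed the count filter that left 15573 genes for testing. RNA was sequenced from 16 organoid lines, which are epithelial cultures grown in a gel of basement membrane proteins, made from pancreatic ductal adenocarcinoma of 6 mice. Per the labels 9 lines came from metastases and 7 from primary tumors, and both groups share the strain C57BL6/J, the same growth medium and the same mice. The metastasis lines came from peritoneum (mice 2, 3 and 4), liver (mice 1 and 6), diaphragm (mice 5 and 6), lung (mouse 5) and ovary (mouse 6), and the tumor lines were 1 from each of mice 1 to 5 and 2 from mouse 6. Genotype, age and sex are not given in the labels. Lines of the same mouse are not independent animals, so p-values partly measure the spread between lines.

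Proteins that enter the endoplasmic reticulum (ER) are folded there by chaperones and sulfhydryl oxidoreductases, and a pancreas epithelium that secretes heavily relies on this machinery. When unfolded protein builds up, 3 kinds of sensor in the ER membrane respond: Ire1 kinases (Ern1 and Ern2) splice Xbp1 RNA, Perk (Eif2ak3) slows translation and raises Atf4, and Atf6 is cut to release a transcription factor. Xbp1 and Atf6 raise chaperones and genes of ER-associated degradation. Atf4 raises stress genes and the enzymes that make asparagine, serine and one-carbon units, and it is also raised through other kinases when amino acids are short, so the chaperone arm and the amino acid arm can be moved apart.

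Some of the promoters hold the classical control sequences of the arms, shown here because the results on the chaperones and on Atf4 targets refer back to them. RefSeq promoter windows on GRCm38.p6 were given for 30 of the 34 genes and were searched on both strands over the 250 bases before the start. CCAAT and CCACG with 9 bases between them, the ER stress element bound by Atf6 with the factor NF-Y, was found in 8 of 30 members against 0.130% of 27025 genes in the table. The element was held by 7 of the 12 chaperone and folding genes covered, Hspa5, Hsp90b1, Calr, Canx, Pdia6, Dnajc3 and Creld2, and the only other member was Syvn1. None of the Atf4 stress genes or amino acid enzymes in the table held it in this window. In the lines below, each read 5′ to 3′ in the direction of the gene, capitals mark the element, which reads CGTGG then ATTGG where it lies on the other strand.
Hspa5 (chr2:34772017-34772051, plus strand): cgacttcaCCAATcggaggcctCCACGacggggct
Creld2 (chr15:88819512-88819546, plus strand): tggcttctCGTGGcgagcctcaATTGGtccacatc
Canx (chr11:50325792-50325826, minus strand): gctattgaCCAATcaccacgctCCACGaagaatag
Dnajc3 (chr14:118937819-118937853, plus strand): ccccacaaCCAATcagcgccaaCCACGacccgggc
Calr (chr8:84847067-84847101, minus strand): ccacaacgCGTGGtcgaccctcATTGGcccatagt
Pdia6 (chr12:17266483-17266517, plus strand): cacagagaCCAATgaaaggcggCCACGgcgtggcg
Syvn1 (chr19:6046524-6046558, plus strand): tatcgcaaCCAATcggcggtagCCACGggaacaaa
Hsp90b1 (chr10:86705525-86705664, minus strand): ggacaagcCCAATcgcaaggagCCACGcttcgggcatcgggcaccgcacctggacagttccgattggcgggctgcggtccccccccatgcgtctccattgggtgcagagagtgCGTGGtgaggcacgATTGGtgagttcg
The Hspa5 element lay 65 to 47 bases before the start, and Hsp90b1 held 2 copies. TGATGNAA, the core of the composite element bound by Atf4 with C/EBP factors, was found in 3 of 30 members, Asns, Chac1 and Herpud1, against 3.91% of all genes. Trib3 was added when the whole 300-base window was read, which gave 4 of 30 members and 4.51% of all genes. Capitals mark TGATGNAA or its reverse complement.
Asns (chr6:7693217-7693240, minus strand): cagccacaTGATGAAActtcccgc
Chac1 (chr2:119351041-119351064, plus strand): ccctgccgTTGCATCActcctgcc
Herpud1 (chr8:94386309-94386332, plus strand): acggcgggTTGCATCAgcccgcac
TGACGTGG, the element of Xbp1 and Atf6 without a CCAAT box, was in 0 of 30 members and in 0.603% of genes. A match describes the letters and does not show that a factor is bound.

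Levels are given as CPM (counts scaled to a common library total) on library sizes scaled by TMM factors, because ribosomal RNA differed widely between libraries. Total expected counts ran from 24624390 to 47945733 in metastasis lines and from 25737437 to 49965469 in tumor lines. Ribosomal RNA was read from 3 genes, CT010467.1, AY036118 and Lars2, called the 3 ribosomal RNA genes below, although Lars2 codes for a protein. Their share of counts had a median of 12.3% in metastasis lines (0.0185% to 72.7%) and 0.272% in tumor lines (0.0463% to 29.9%). The 2 richest libraries were metastasis replicate 4 (72.7%) and tumor replicate 2 (29.9%). The ribosomal RNA linked share, from the list Gm42418, Gm26917 and Lars2, was 10.4% and 4.86% in these 2 libraries. Tumor replicate 6 stood apart from the other tumor lines in several members, and values without it are given where they move. The epithelial markers Epcam, Cdh1, Krt8, Krt18 and Krt19 summed to between 3524 and 7145 CPM in metastasis lines and between 3657 and 5287 CPM in tumor lines. Marker sums of other cells were low: in metastasis lines they were at most 0.258 CPM for fibroblasts, 0.408 for endothelium, 1.61 for acinar cells, 6.52 for mesothelium and 5.08 for immune cells, and in tumor lines at most 0.159 CPM for fibroblasts, 0.392 for endothelium, 1.73 for acinar cells, 4.14 for mesothelium and 4.43 for immune cells. The hepatocyte list, led by Ttr, ran from 0.209 to 6.51 CPM in metastasis lines and from 6.65 to 112 CPM in tumor lines. Of the plasma cell list, a type rich in Xbp1, Jchain, Mzb1 and Tnfrsf17 were each at most 0.0504 CPM in every line, and Sdc1, which epithelium also makes, carried the whole sum.

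Per unit of length, the members spanned a wide range of levels. The most abundant was Calr, the chaperone calreticulin, at a median of 375 CPM per kb of effective length over the 16 lines (291 to 440). Hspa5, the main ER chaperone BiP, followed at 332 CPM per kb (310 to 465), and its range overlapped that of Calr. Phgdh, the first enzyme of serine synthesis, came next at 258 CPM per kb (169 to 529), and Atf4 itself stood at 199.5 CPM per kb (125 to 277). Xbp1 was in the middle, at 42.9 CPM per kb (20.5 to 144). The sensors were low: Atf6 at 8.51, Eif2ak3 at 7.59, Ern1 at 4.82 and Ern2 at 1.36 CPM per kb.

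**Figure D1:**
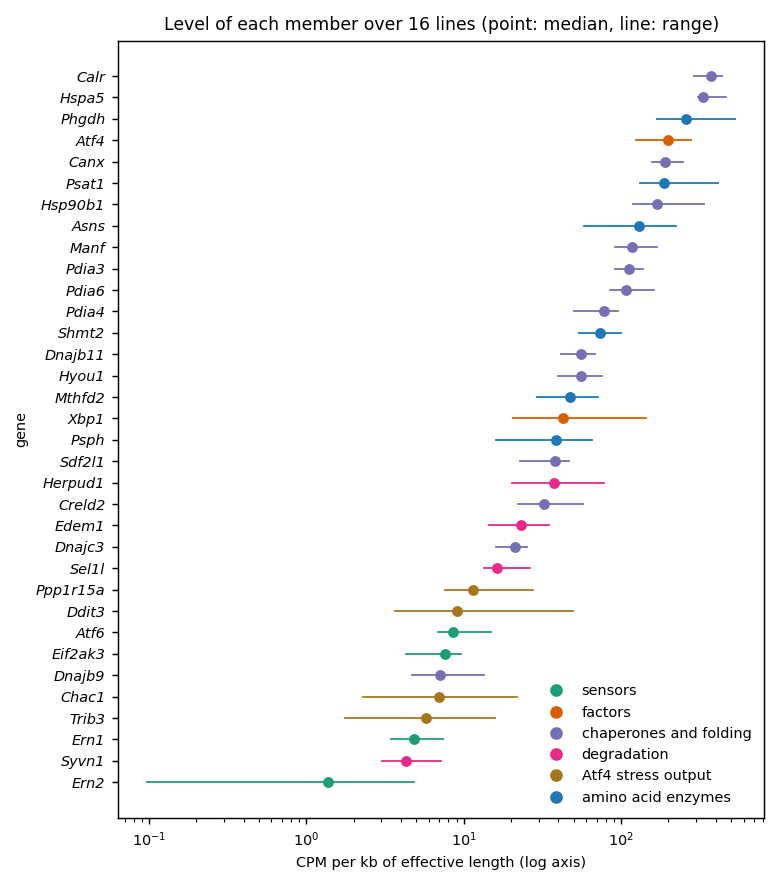
Level of each of the 34 genes per kb of effective length (log axis), with the median over 16 lines as a point and the lowest to highest line as a bar, coloured by role. Calr (median 375) and Hspa5 (332) were highest, and Ern2 (1.36) was lowest with the widest range.

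Metastasis and tumor lines of the same mice were compared with mouse as a term, which asks whether the stress program differs with stage. Xbp1 and the chaperone genes Canx and Dnajc3 fell, while the chaperone genes Creld2 and Dnajb11 rose, in metastasis lines relative to tumor lines. These 5 of 34 members called by edgeR (14.7%) stand beside 16.5% of all 15573 genes tested, so the share was close to the background. The 2 higher calls stand beside 6.59% of all genes called higher, and the 3 lower calls beside 9.92% called lower. By role, 4 of 14 chaperone and folding genes and 1 of 2 factors were called, and 0 of 4 sensors, 0 of 4 degradation genes, 0 of 4 Atf4 stress genes and 0 of 6 amino acid enzymes. At an unadjusted p under 0.05 there were 14 of 34 members, beside 5240 of the 15573 genes tested. The median log2 fold change (metastasis over tumor) of the 34 was 0.16, with 26 positive and 8 negative values. Over all genes tested the median was -0.02, with 7460 positive and 8113 negative values. The role medians were 0.03 in chaperones, 0.06 in degradation genes and 0.36 in sensors. In amino acid enzymes the median was 0.33, where 6 of 6 were positive, and in Atf4 stress genes 0.60, where 4 of 4 were positive. Many members of these 2 groups went together over lines, as given below, so their signs were not separate observations. The metastasis and tumor ranges overlapped in all 34 members, and the share of all genes tested with such overlap was not counted. Ribosomal RNA differed between the stages, as given above: with the share of the 3 genes as a covariate 3 members were called, beside 12.1% of all genes, and without the 2 richest libraries 1 was called, Xbp1, beside 5.02%. The log2 fold changes of the 4 calls lost without those libraries were 0.58 in Creld2, 0.27 in Dnajb11, -0.23 in Canx and -0.29 in Dnajc3, against 0.62, 0.29, -0.27 and -0.28 with all lines. With 1 line left out at a time the count moved with the share of all genes called. It was 2, beside 7.19% to 11.7% of all genes, without any one of tumor replicates 1, 3, 4 and 5 or of metastasis replicates 1, 2, 3 and 5. It was 3, beside 9.02% to 13.1%, without tumor replicate 2 or metastasis replicates 7 or 9, and 8, beside 24.7%, without tumor replicate 6. Without both metastasis lines and the tumor line of mouse 5 it was 1, beside 4.9%. In bulk RNA, fewer cells of a kind and less RNA per cell cannot be told apart.

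**Figure D2:**
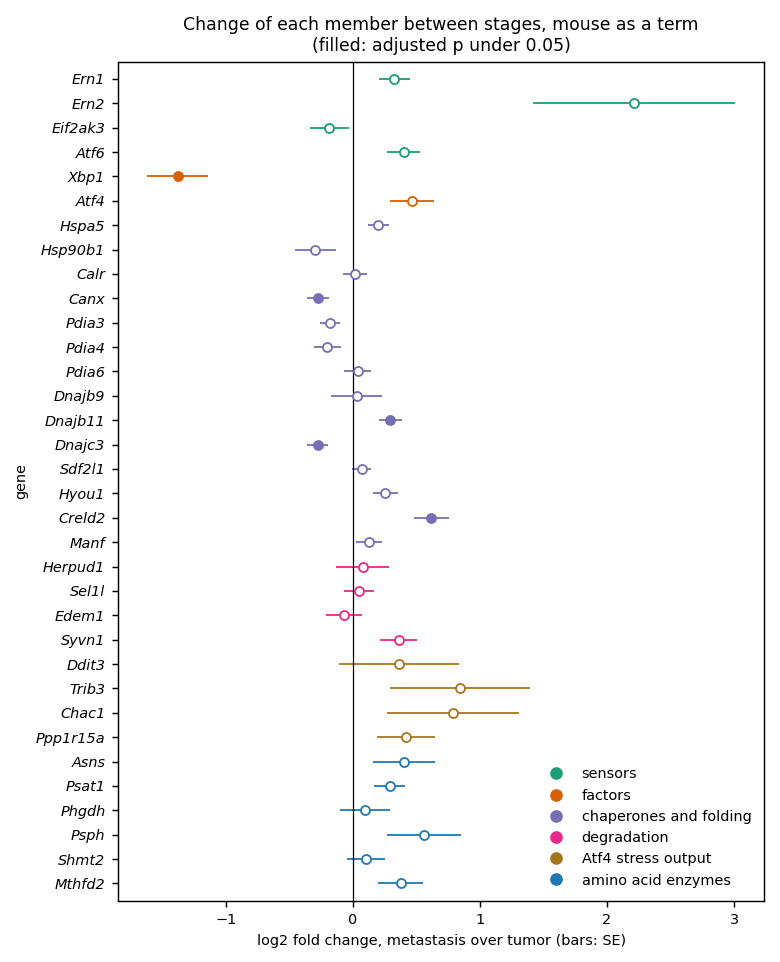
log2 fold change of each member, metastasis over tumor, with its SE as a bar, from the fit with mouse as a term; filled points passed an adjusted p of 0.05. Xbp1 (-1.38) lies lowest and Ern2 (2.21), which did not pass, highest with the widest bar.

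Among the transcription factors, Xbp1, the target of Ire1 and a driver of chaperone and secretory genes, had the lowest fold change of the 34. The gene lies at chr11:5520659-5525893 (GRCm38, plus strand). It averaged 60.3 ± 20.1 CPM (SD, n = 9) in metastasis lines and 167 ± 72.5 CPM (SD, n = 7) in tumor lines. Its lowest, median and highest values were 36.3, 54.7 and 99.5 CPM in metastasis lines and 74.5, 176 and 255 CPM in tumor lines. In each of the 6 mice every metastasis line lay below every tumor line of that mouse, and the 2 tumor lines of mouse 6 (74.5 and 82.0 CPM) made the whole overlap. The log2 fold change was -1.38 (SE 0.24, adjusted p = 0.00501), and it passed in 36 of 36 alternative settings, with values from -1.70 to -1.21 and adjusted p up to 0.0351. The median log2 fold change of all genes on chromosome 11, which carries Xbp1 and Canx, was -0.00. By organ the fold change was -1.71 (SE 0.34) in peritoneum, -1.26 (SE 0.38) in liver, -1.02 (SE 0.37) in diaphragm, -2.06 (SE 0.55) in lung and -0.47 (SE 0.48) in ovary, the last 2 from 1 line each; the test that the organs are equal gave an adjusted p of 1.00 for Xbp1. Splicing by Ire1 removes a short piece of Xbp1 RNA, and no annotated Xbp1 transcript in these files has an intron shorter than 300 bases, so the spliced form was not measured.

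Atf4, the factor of the amino acid and stress arm, whose protein is set mainly by translation, had 275, 346 and 435 CPM in metastasis lines and 196, 261 and 353 CPM in tumor lines, and 4 of the 9 metastasis lines lay above every tumor line. The log2 fold change was 0.46 (SE 0.17, adjusted p = 0.0844), which missed the threshold and passed in 5 of 36 alternative settings, and without tumor replicate 6 it was 0.54 (SE 0.18, adjusted p = 0.0505). It was positive in 5 of 6 mice. The exception was mouse 2, with a metastasis minus tumor difference of -0.36, whose tumor line is one of the 2 libraries richest in ribosomal RNA.

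Of the sensors, Ern2, the Ire1 form of mucus-secreting epithelium, differed most between lines. It had 2.53, 6.36 and 13.3 CPM in metastasis lines and 0.270, 0.758 and 12.7 CPM in tumor lines. Only tumor replicate 6, at 12.7 CPM, overlapped the metastasis lines, and the other 6 tumor lines had at most 1.69 CPM. The log2 fold change was 2.21 (SE 0.80, adjusted p = 0.0753), positive in 6 of 6 mice, and without tumor replicate 6 it was 3.18 (SE 0.50, adjusted p = 0.00112). The fit without that line called 24.7% of all genes tested, and Ern2 passed in 7 of 36 alternative settings. Ern1, the Ire1 kinase found in most cells, had 22.3, 30.8 and 40.4 CPM in metastasis lines and 18.9, 24.8 and 27.1 CPM in tumor lines, and 5 of the 9 metastasis lines lay above every tumor line. Its log2 fold change was 0.32 (SE 0.12, adjusted p = 0.0872), and 0.40 (SE 0.12, adjusted p = 0.0298) without tumor replicate 6. Ern1 passed in 3 of 36 alternatives. Atf6 ran from 48.5 to 105 CPM in metastasis lines and from 49.0 to 72.5 CPM in tumor lines. Its log2 fold change was 0.40 (SE 0.13, adjusted p = 0.0538), and 0.47 (SE 0.13, adjusted p = 0.0216) without tumor replicate 6. Atf6 passed in 7 of 36 alternatives. Eif2ak3 ran from 17.7 to 38.6 CPM in metastasis lines and from 25.2 to 39.4 CPM in tumor lines, and its log2 fold change was -0.19 (SE 0.15, adjusted p = 0.415).

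**Figure D3:**
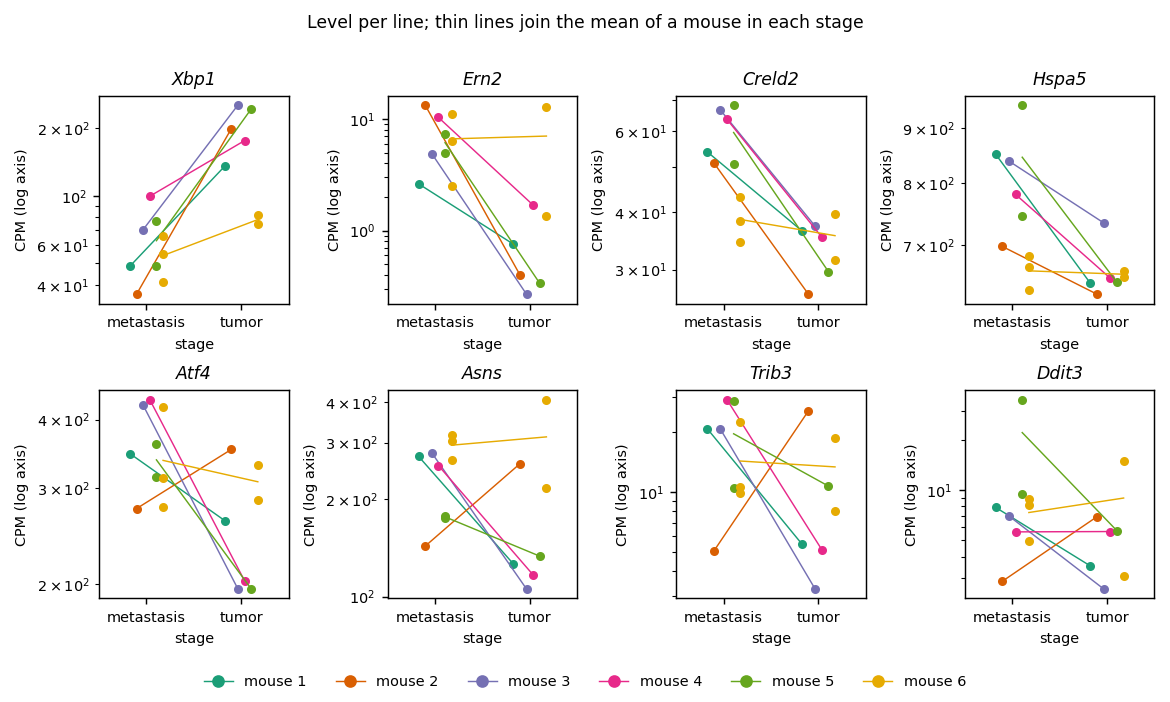
CPM per line (log axes) of 8 members in metastasis (left) and tumor (right) lines, one colour per mouse, with thin lines between each mouse's mean of the 2 stages. Xbp1 was lower in metastasis lines in all 6 mice. Ern2 was 12.7 CPM in 1 tumor line of mouse 6 and at most 1.69 CPM in the other tumor lines. Atf4, Asns, Trib3 and Ddit3 had positive log2 fold changes but were lower in the metastasis line than in the tumor line of mouse 2.

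In the chaperone and folding genes, calls fell on both sides. Creld2, an ER stress inducible protein of the secretory pathway, had 34.4, 51.2 and 68.2 CPM in metastasis lines and 26.5, 35.3 and 39.7 CPM in tumor lines, and 7 of the 9 metastasis lines lay above every tumor line. Its rise of 0.62 (log2, SE 0.14, adjusted p = 0.0135) was seen in 6 of 6 mice and passed in 33 of 36 alternative settings. The exceptions were limma on log2(TPM + 1) with an adjusted p of 0.436, the setting without the 2 libraries richest in ribosomal RNA, 0.0579, and mouse 5 left out, 0.0514. Dnajb11, a co-chaperone of BiP, had 85.1, 101 and 119 CPM in metastasis lines and 73.0, 86.1 and 98.8 CPM in tumor lines, and 6 of the 9 metastasis lines lay above every tumor line. It rose by 0.29 (SE 0.09, adjusted p = 0.0456) in 6 of 6 mice, and passed in 12 of 36 alternatives. The median log2 fold change of all genes was 0.11 on chromosome 15, which carries Creld2, and -0.01 on chromosome 16, which carries Dnajb11.

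The 2 chaperone genes that fell were Canx and Dnajc3. Canx, the membrane lectin chaperone calnexin, had 492.8, 575 and 657 CPM in metastasis lines and 532, 715 and 769 CPM in tumor lines. Tumor replicate 6, at 532 CPM, was the only tumor line within the metastasis range. Canx fell by 0.27 (SE 0.09, adjusted p = 0.0475) in 6 of 6 mice and passed in 8 of 36 alternatives, and without tumor replicate 6 its log2 fold change was -0.33 (SE 0.08, adjusted p = 0.0114). Dnajc3, a BiP co-chaperone that also restrains Perk, had 79.3, 94.0 and 106 CPM in metastasis lines and 105, 109 and 125 CPM in tumor lines, with 1 tumor line inside the metastasis range. It fell by 0.28 (SE 0.08, adjusted p = 0.0367) in 6 of 6 mice and passed in 15 of 36 alternatives, and the median log2 fold change of all genes on its chromosome 14 was -0.15. The fold changes of Canx, Dnajc3 and Dnajb11 were all small, and none of them reversed under any alternative.

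Hspa5, the most used reading of ER stress, had 636, 745 and 945 CPM in metastasis lines and 630, 652 and 734 CPM in tumor lines, and 5 of the 9 metastasis lines lay above every tumor line. Its log2 fold change was 0.20 (SE 0.08, adjusted p = 0.119), positive in 6 of 6 mice but only 0.01 in mouse 6, and it passed in 1 of 36 alternatives, DESeq2. Hsp90b1 (Grp94) ran from 310 to 882 CPM in metastasis lines and from 365 to 669 CPM in tumor lines, and its log2 fold change was -0.30 (SE 0.16, adjusted p = 0.214), negative in 5 of 6 mice. The highest line was metastasis replicate 4 of mouse 5. The median log2 fold change of all genes on chromosome 10, which carries Hsp90b1, was -0.22, and metastasis replicate 4 was also highest in the chromosome median. The part of the chromosome in the values of Hsp90b1 was not tested. The other 8 chaperone and folding genes, among them the disulfide isomerases Pdia3, Pdia4 and Pdia6, calreticulin, Hyou1 and Manf, had log2 fold changes between -0.20 and 0.25 and adjusted p of at least 0.0903.

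The promoter element did not split the calls by direction. Of the 4 chaperone genes called, Creld2 (higher), Canx and Dnajc3 (lower) all held the ER stress element, and the window of Dnajb11 did not. Hspa5 and Hsp90b1, which hold it, were not called and had opposite signs.

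Degradation genes, which move misfolded protein out of the ER to the proteasome, gave 0 of 4 calls. Syvn1, the ubiquitin ligase Hrd1, ran from 12.3 to 23.3 CPM in metastasis lines and from 9.84 to 21.4 CPM in tumor lines. Its log2 fold change was 0.36 (SE 0.15, adjusted p = 0.106), and 0.46 (SE 0.15, adjusted p = 0.0415) without tumor replicate 6. Syvn1 passed only in that 1 of 36 alternatives, where 24.7% of all genes were called. The median log2 fold change of all genes on chromosome 19, which carries Syvn1 and Psat1, was 0.24. Sel1l, its partner, Edem1, a mannosidase-like protein, and Herpud1, a membrane part of the complex, had log2 fold changes between -0.07 and 0.08, and without tumor replicate 6 they were 0.11 in Sel1l, 0.02 in Edem1 and 0.19 in Herpud1. Tumor replicate 6 was highest of all 16 lines in Sel1l (114 CPM) and Edem1 (107 CPM).

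The Atf4 stress genes had the largest median spread over lines of the 6 roles. Ddit3 encodes Chop, a factor linked to cell death under lasting stress, and had 2.85, 7.89 and 34.9 CPM in metastasis lines and 2.56, 5.66 and 14.9 CPM in tumor lines. The highest value came from metastasis replicate 4 (34.9 CPM), the line richest in ribosomal RNA, and no other metastasis line exceeded 9.46 CPM. Its log2 fold change was 0.37 (SE 0.47, adjusted p = 0.626), and it changed with the setting: 0.39 without the 2 libraries richest in ribosomal RNA, 0.0049 with the share of 3 ribosomal RNA genes as a covariate, -0.02 with the linked share, 0.12 without mouse 5 and 0.87 (SE 0.44, adjusted p = 0.175) without tumor replicate 6. Trib3, a pseudokinase induced by Atf4 and Chop, had 5.04, 20.7 and 29.1 CPM in metastasis lines and 3.25, 8.02 and 25.6 CPM in tumor lines, and its log2 fold change was 0.84 (SE 0.55, adjusted p = 0.305). Chac1, a glutathione-degrading enzyme, had 5.49, 16.2 and 31.9 CPM in metastasis lines and 3.35, 6.95 and 26.8 CPM in tumor lines, and its log2 fold change was 0.79 (SE 0.52, adjusted p = 0.313). Both were positive in 5 of 6 mice, and the highest tumor line was tumor replicate 2, the tumor line richest in ribosomal RNA. Without the 2 richest libraries the log2 fold change of Trib3 was 1.09 (SE 0.48, adjusted p = 0.181) and that of Chac1 was 0.98 (SE 0.42, adjusted p = 0.174), whereas with the share of 3 ribosomal RNA genes as a covariate they were 0.50 (SE 0.54) in Trib3 and 0.44 (SE 0.49) in Chac1. Without tumor replicate 6 they were 1.17 (SE 0.56) in Trib3 and 1.03 (SE 0.55) in Chac1. Ppp1r15a, the Gadd34 phosphatase subunit that lets translation resume, ran from 15.95 to 49.1 CPM in metastasis lines and from 13.7 to 28.1 CPM in tumor lines, and its log2 fold change was 0.42 (SE 0.23, adjusted p = 0.221), 0.20 (SE 0.17) with the share of 3 ribosomal RNA genes as a covariate and 0.61 (SE 0.21, adjusted p = 0.0532) without tumor replicate 6.

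Among the amino acid enzymes, Asns, asparagine synthetase, had 143, 265 and 316 CPM in metastasis lines and 106, 133 and 407 CPM in tumor lines. Tumor replicate 6 (407 CPM) was highest of all lines, and tumor replicates 2 (258 CPM) and 7 (218 CPM) came next among tumor lines, so that the groups overlapped widely. The log2 fold change was 0.40 (SE 0.24, adjusted p = 0.273), positive in 4 of 6 mice, and without tumor replicate 6 it was 0.59 (SE 0.22, adjusted p = 0.0753). Psat1, the aminotransferase of serine synthesis, had 300, 498 and 930 CPM in metastasis lines and 305, 373 and 669 CPM in tumor lines, and its log2 fold change was 0.29 (SE 0.12, adjusted p = 0.127). Phgdh had 278, 425 and 869 CPM in metastasis lines and 339, 418 and 567 CPM in tumor lines, and its log2 fold change was 0.09 (SE 0.20, adjusted p = 0.784). Psph, the last step of serine synthesis, and the mitochondrial one-carbon enzymes Mthfd2 and Shmt2 had log2 fold changes of 0.56 (SE 0.29), 0.38 (SE 0.18) and 0.11 (SE 0.15), with adjusted p between 0.160 and 0.660. Without tumor replicate 6 Psph was 0.79 (SE 0.27, adjusted p = 0.0543).

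The 2 arms were then set against each other over lines. The SD of log2 CPM over the 16 lines had a median of 0.22 in chaperone and folding genes, 0.45 in amino acid enzymes and 0.95 in Atf4 stress genes, against 0.41 over all genes tested. SD also went with level: over all genes its median was 0.69 in the 3894 genes of lowest expression and 0.29 in the 3894 of highest expression. Ddit3, Trib3 and Chac1 spanned 13.6, 8.95 and 9.52 times between their lowest and highest line, and Hspa5, Calr and Pdia3 between 1.5005 and 1.51 times. Over the 16 lines, the median pairwise correlation of log2 CPM was 0.55 among the 6 amino acid enzymes (15 pairs, from -0.20 to 0.97). It was 0.41 between them and the Atf4 stress genes (24 pairs, from -0.39 to 0.82). Among the 14 chaperone and folding genes it was 0.04 (91 pairs, from -0.72 to 0.92). Between amino acid enzymes and chaperones it was 0.03 (84 pairs, from -0.69 to 0.61). With each line taken as its deviation from its stage mean, these medians were 0.52, 0.32, 0.11 and -0.10 in that order. Phgdh correlated with the other amino acid enzymes at -0.20 (Psat1) to 0.38 (Mthfd2). Atf4 RNA had a median correlation of 0.69 with the amino acid enzymes, 0.71 with the stress genes and -0.02 with the chaperones. The closest pairs were Asns with Psph (0.97), Trib3 with Chac1 (0.94) and Creld2 with Dnajb11 (0.92), and the most opposed was Ern2 with Canx (-0.94). These are descriptions over lines that share mice and library preparation, with no test.

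**Figure D4:**
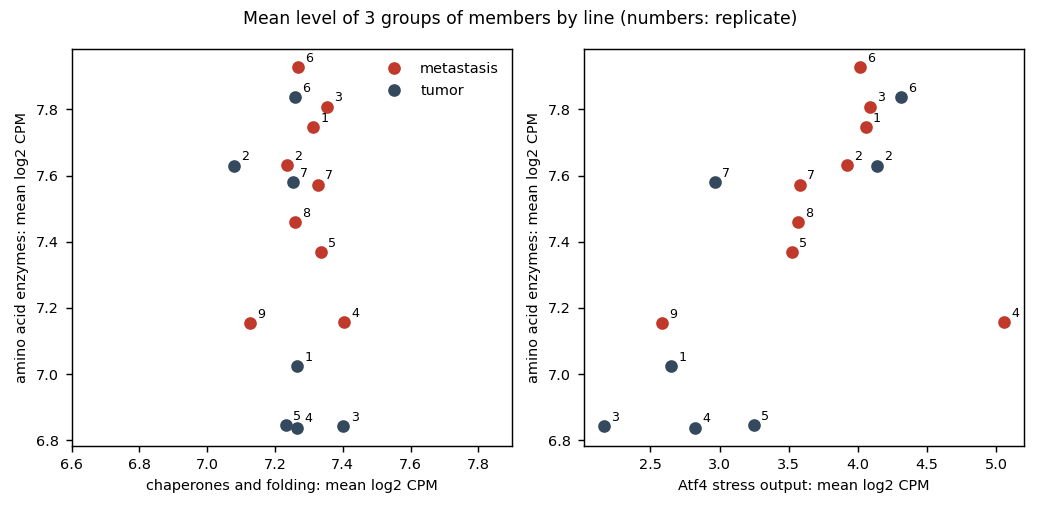
Mean log2 CPM of the 6 amino acid enzymes against that of the 14 chaperone and folding genes (left) and against that of the 4 Atf4 stress genes (right), one point per line, metastasis in red and tumor in dark blue, numbered by replicate. The chaperone mean stays between 7.08 and 7.404 in all 16 lines while the amino acid mean runs from 6.84 to 7.93. Single chaperone genes moved in both directions, so their mean can be narrower than its members.

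The stage difference of the Atf4 arm did not have the same sign in every mouse. Mice 1 to 4 have 1 line of each stage, so differences between mice and between lines cannot be told apart there. The 2 tumor lines of mouse 6 had means of 4.31 and 2.96 log2 CPM in the Atf4 stress genes. The metastasis minus tumor difference in the mean log2 CPM of the amino acid enzymes was 0.72 in mouse 1, -0.48 in mouse 2, 0.79 in mouse 3, 0.97 in mouse 4, 0.42 in mouse 5 and -0.06 in mouse 6. In the Atf4 stress genes it was 1.41, -1.55, 1.76, 1.27, 1.04 and 0.08 in mice 1 to 6 in that order, and so mouse 2 went the other way in both. In the chaperone mean it stayed between -0.17 and 0.14 in every mouse. Single chaperone genes could move more, such as Hsp90b1 with -0.87 in mouse 3 and 0.52 in mouse 5. The median of all genes tested on its chromosome 10 differed by -0.33 in mouse 3 and 0.07 in mouse 5. In mouse 2 the 3 ribosomal RNA genes held 29.9% of counts in the tumor line and 16.6% in the metastasis line. That metastasis line, metastasis replicate 9, was the second lowest of all lines in Atf4 stress genes. The part of ribosomal RNA in this was not tested within the mouse, which has 1 line of each stage.

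Several lines held many of the extreme values. Metastasis replicate 3 was the highest of the 16 lines in 8 of 34 members, metastasis replicate 4 in 6, and tumor replicate 6 in 7. Tumor replicate 6 was among the top 3 in 15 members and among the bottom 3 in 7, and metastasis replicate 4 was among the top 3 in 12. Tumor replicate 7, from the same mouse as tumor replicate 6, was among the top 3 in 1, and tumor replicate 3 was the lowest of all lines in 9. How often each line is extreme over all genes tested was not counted. Metastasis replicate 3 also had the highest median on chromosomes 3, 8, 15 and 16, which carry Phgdh, Calr, Herpud1, Atf4 and Dnajb11. In metastasis replicate 4 the 3 ribosomal RNA genes held 72.7% of counts. Tumor replicate 6 was highest in Asns (407 CPM), Psph (89.0 CPM), Sel1l, Edem1, Eif2ak3, Pdia4 and Dnajb9. It was the lowest tumor line in Xbp1 (74.5 CPM) and Canx (532 CPM). Without it the test called 8 members, 5 higher and 3 lower, against 24.7% of all genes tested in that fit. The members called were Ern2, Ern1, Atf6, Creld2 and Syvn1 (higher) and Xbp1, Canx and Dnajc3 (lower), and Dnajb11 missed the threshold at 0.27 on the log2 scale (SE 0.10, adjusted p = 0.0605), against 0.29 with all lines.

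**Figure D5:**
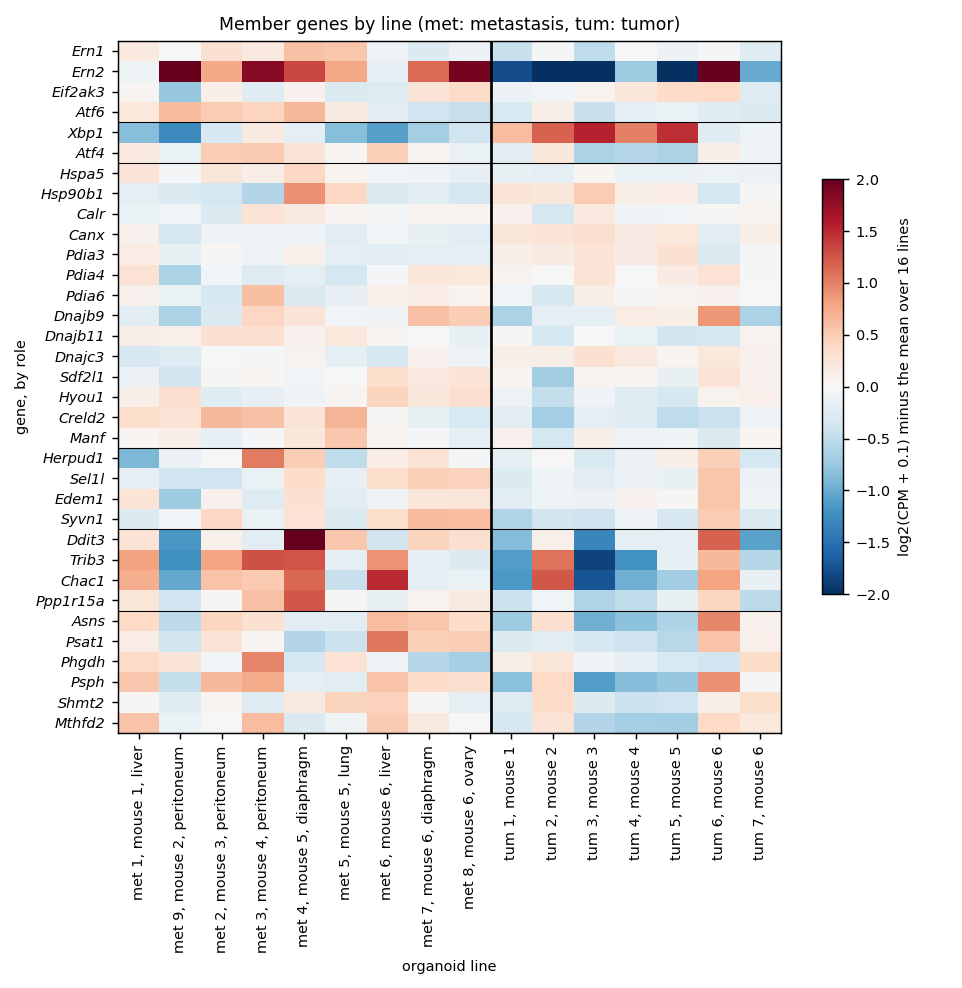
Deviation of log2(CPM + 0.1) from the mean over 16 lines for each member (rows, by role) in each line (columns, metastasis lines left of the black bar, tumor lines right). Xbp1 is low across the metastasis lines, and tumor replicate 6 is high in Ern2, Asns and Psph.

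Lines from different organs and mice were compared within the members. The test that all metastatic organs are alike called 0 of 34 members and 0.0% of 15573 genes (edgeR), with 0 members and 266 genes at an unadjusted p under 0.05. With lung and ovary at 1 line each, this test had few lines per organ. No organ was sampled in every mouse, so organ and mouse cannot be fully told apart. The test of the mouse terms called 0 of 34 members against 0.154% of all genes, and 3 of 34 members had an unadjusted p under 0.05, beside 2661 of 15573 genes, with Psat1 the lowest (adjusted p = 0.0968).

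Genes of the same pathways outside the 34 were counted from lists chosen with earlier results known. Of 33 further folding and translocation genes 0 were called higher and 5 lower: Cnpy2, Nucb2, Spcs2, Txndc5 and Sil1, a nucleotide exchange factor for BiP. Their log2 fold changes ran from -0.78 to -0.27, and the median of the list was -0.14. The share called, 5 of 33, was near the 16.5% of all genes called. Of 12 further degradation genes 0 were called. Among 15 further sensors and signal genes, 2 were called higher and 4 lower, beside 6.59% of all genes called higher and 9.92% called lower. Of these, Creb3l1 and Creb3l2, which are cut from the ER membrane like Atf6 and raise secretory genes, fell by 2.89 (SE 0.76) and 1.53 (SE 0.32), and Creb3 fell by 0.49 (SE 0.11). Wfs1, an ER membrane protein lost in Wolfram syndrome, rose by 1.17 (SE 0.27), and Ppp1r15b, the constitutive phosphatase subunit for eIF2-alpha, rose by 0.24 (SE 0.06).

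Of 41 further Atf4 targets tested, 4 were called higher and 2 lower, with a median log2 fold change of 0.16, and the 6 of 41 called were also near the 16.5% of all genes. The higher calls included Tars, threonyl tRNA synthetase, by 0.50 (SE 0.11), Slc7a1, a transporter of basic amino acids, by 0.41 (SE 0.11), and Nupr1, a stress protein of the pancreas, by 1.94 (SE 0.58). Sesn2 fell by 1.35 (SE 0.28) and Gdf15, a stress hormone, by 2.18 (SE 0.60), and both are also targets of p53. Gdf15 had 0.0504, 3.54 and 8.81 CPM in metastasis lines and 4.29, 15.3 and 17.9 CPM in tumor lines, so that the groups overlapped. Among 9 mucous cell genes tested, 1 was called higher and 2 lower, beside 6.59% and 9.92% of all genes. Muc13 rose by 4.19 (SE 0.96), while Gcnt3 and Tff2 fell, by 1.13 (SE 0.16) and 2.80 (SE 0.86). Agr2, an ER disulfide isomerase of mucus cells, ran from 2.80 to 51.1 CPM in metastasis lines and from 1.16 to 25.7 CPM in tumor lines, and its log2 fold change was 1.19 (SE 0.90, adjusted p = 0.383). These lists held 20 calls in all, beside 16.5% of all genes called. They held 6 without the 2 libraries richest in ribosomal RNA (5.02% of all genes), 3 without mouse 5 (4.9%) and 29 without tumor replicate 6 (24.7%). They held 8 without tumor replicate 5, 10 without tumor replicate 3 or metastasis replicate 2, 12 without tumor replicate 1 or metastasis replicate 1, and 13 without metastasis replicate 5, beside 7.19% to 11.7% of all genes.

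Isoform shares were compared within mice. Of 16736 transcripts put to an exact, two-sided test that flips the sign of each of 6 mouse differences, 0 passed after adjustment, and 37 of them belonged to 17 members. The smallest p that 6 mice allow is 0.03125, with which 8.39% of all transcripts were returned, and the lowest adjusted p of this exact test was 0.373. Of the 37 member transcripts 3 reached it: Xbp1-201, Psph-206 and Edem1-203. The main coding transcript Xbp1-201 averaged 82.7% ± 2.80 in metastasis lines (SD, n = 9) and 84.8% ± 2.15 in tumor lines (SD, n = 7), lower in 6 of 6 mice. Psph-206 averaged 14.6% in metastasis lines and 10.7% in tumor lines, and Edem1-203 8.75% in metastasis lines and 13.4% in tumor lines. With 6 mice, an adjusted p under 0.05 would have needed a much larger share of transcripts at the smallest p than the 8.39% seen. The 0 calls therefore do not show that isoform shares were unchanged.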

How the data were processed

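Total RNA of 16 organoid lines was depleted of ribosomal RNA and made into stranded libraries, per the labels' protocols. Per the submitters' processing notes the tools were FastQC 0.11.8, STAR 2.6.0c and RSEM 1.3.1 with genome build GRCm38.p6. The authors deposited expected counts (RSEM estimates that can hold decimals), TPM and FPKM per gene, and the percent of each isoform, per the file headers. FPKM was not used. The strand setting of the counting is not given in the sources used here, so reads of overlapping antisense genes cannot be told apart, and RSEM shares reads among near-identical genes.

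Expected counts were rounded and tested with edgeR 4.0.16 (quasi-likelihood test, TMM factors, filterByExpr by stage) in R 4.3.3, with terms for mouse and stage. P-values were adjusted by Benjamini-Hochberg over the whole table of 15573 genes that passed the filter and called under 0.05, and every adjusted p for a gene is from edgeR unless another tool is named. CPM used TMM-scaled library sizes, and scores used a prior count of 2. Names came from GENCODE M21: 55394 of 55487 identifiers matched. Ddit3 has 2 identifiers, and the second is listed at 0 in every line. Isoform percent values were compared by an exact sign-flip test over 6 mice, for transcripts with a mean share of 10% to 90% of genes with an expected count of at least 20 in every line.

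The members and the gene lists were chosen with earlier results of these data known. Values over lines are given for members past the threshold and for 12 members named in the design, and up to 5 other pathway genes per list are named by lowest p, plus Agr2 and Gdf15. Mouse labels pair the lines: deviations from stage means correlated at a mean of 0.261 in lines of the same mouse (17 pairs) and -0.116 in lines of different mice (103 pairs). Settings tried besides this were a fit without mouse, other count filters, RLE size factors, sums of each mouse's lines by stage, DESeq2 1.42.0, limma 3.58.1 on voom values and on log2(TPM + 1), edgeR's robust option, ribosomal RNA, and each line and mouse left out. The 2 settings built on the 3 genes that held most ribosomal RNA were added after seeing the data. Scripts were tested on simulated data. Precision from counts covers counting error only.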

Additional observations from a re-analysis of the deposited data

Results flagged for a closer look

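Each member was examined in each stage for a line far from the others of its group, by the gap to its nearest neighbour relative to the range of the group. Chance alone marks about 1 in 20 groups, and 6 of 68 were marked here. In metastasis lines, Ddit3 was 34.87 CPM in metastasis replicate 4, against 2.85 to 9.46 CPM in the other metastasis lines. The 3 ribosomal RNA genes held 72.7% of the counts of this library. In tumor lines, tumor replicate 6 was marked 3 times, with Canx lowest at 532.5 CPM (others 671 to 769), Sel1l highest at 114.1 CPM (others 63.8 to 72.7) and Edem1 highest at 107 CPM (others 63.2 to 77.9). Hspa5 was highest in tumor replicate 3 at 734 CPM (others 630 to 662). Pdia6 was lowest in tumor replicate 2 at 167.6 CPM (others 200 to 227), a library in which the 3 ribosomal RNA genes held 29.9%. No explanation of these values was tested.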

How the results depend on the processing

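Over 36 alternatives Xbp1 was called in all 36 and Creld2 in 33, while Dnajc3 was called in 15, Dnajb11 in 12 and Canx in 8. Of the 34 members 23 kept their sign throughout. The count of members called, 5 in the reported test, was 11 with DESeq2 (8 higher and 3 lower, beside 25.5% of all genes), 3 with no count filter (8.87%), 3 with either ribosomal RNA share as a covariate (11.1% and 12.1%), 1 with limma on log2(TPM + 1) (7.6% of all genes) and 1 without the 2 libraries richest in ribosomal RNA (5.02%). With single lines or mice left out it ran from 1 (mouse 5, 4.9% of all genes) to 8 (tumor replicate 6, 24.7%). With no replicate block 4 members were called, beside 14.2% of all genes. The other pathway genes called, 20 in the reported test, were 12 with no replicate block, 13 with counts summed per mouse and stage, 9 with limma on log2(TPM + 1), 6 without the 2 libraries and 12 with the ribosomal RNA linked share as covariate, and 3 (mouse 5) to 29 (tumor replicate 6) with lines or mice left out. The mouse test gave 1 member with no count filter, against 0, and 0 to 1 with lines or mice left out. Fewer samples were fitted in each setting that left lines out, and the cause of the other shifts was not tested.

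Signs that reversed belonged to members that were not called. On log2(TPM + 1), where the median of all genes was -0.10, Calr was -0.133, Pdia6 -0.134, Dnajb9 -0.078, Sdf2l1 -0.093, Manf -0.027, Herpud1 -0.096, Sel1l -0.129, Phgdh -0.055 and Shmt2 -0.051. With the ribosomal RNA linked share as covariate Calr was -0.002, Dnajb9 -0.001, Herpud1 -0.050, Sel1l -0.029 and Ddit3 -0.021. With the share of 3 ribosomal RNA genes Dnajb9 was -0.018, Herpud1 -0.050 and Sel1l -0.031. Without the 2 libraries Calr was -0.041, and with summed counts Sel1l was -0.018. With lines or mice left out the values ran from -0.034 to 0.091 in Calr, -0.051 to 0.137 in Pdia6, -0.106 to 0.215 in Dnajb9, -0.082 to 0.192 in Herpud1, -0.037 to 0.108 in Sel1l, -0.156 to 0.016 in Edem1, -0.059 to 0.378 in Phgdh and -0.015 to 0.246 in Shmt2. Small differences such as these were not resolved at 16 lines. No alternative changed the 0 members called for sites. The 0 member transcripts called could not change with a mouse left out, because the smallest p of the exact sign-flip test was then 0.0625.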
